A study of Homo sapiens with 10 samples.

Results

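The insulin-like growth factor (IGF) genes described here are 10 genes of the 64940 kept from the deposited table: IGF2, H19 and MIR675 of one imprinted locus, the receptor genes IGF1R, IGF2R and INSR, and the binding protein genes IGFBP2, IGFBP3, IGFBP4 and IGFBP5. They were chosen by name, as the locus and the partners of its growth factor, after IGF2 and MIR675 had been seen to be lower in cells that overexpress DAZL. The differences in IGF2 and MIR675 between the groups are therefore given as a description with no test, and tests are given for the other 8 genes. The 10 names match 11 entries, because a second gene entry that overlaps IGF2 carries the same name.

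The libraries were 2 control and 2 oeDAZL RNA sequencing libraries, all from cells derived from H9, a human embryonic stem cell line. DAZL is a germ cell RNA-binding protein that recognises GUU in RNA. The paper's methods describe, under its small RNA libraries, BMP-treated cells that received a lentivirus with DAZL and GFP or with GFP alone and were sorted. A general section on differentiation also gives BMP treatment and lentivirus for overexpression experiments. The section on RNA sequencing of whole transcripts itself names no culture. The sample labels give the control cells as genotype wt, spontaneously differentiated, and the oeDAZL cells as hPGCLCs, that is human primordial germ cell-like cells. The series' design text and the paper call both groups hPGCLCs. By the labels the groups also differ in culture, and an effect of DAZL and a difference in culture cannot be told apart. The labels do not say that replicates came from separate cultures, so the spread between them may be technical. The 6 small RNA libraries of the series were not analysed here.

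The overexpressed gene itself, DAZL, had 0 and 0.0333 TPM (transcript abundance scaled to a fixed library total) in control against 102 and 101 TPM in oeDAZL. Of 8 markers of primordial germ cells, NANOS3, PRDM1, SOX17, DPPA3, DND1 and KLF4 were at 4.82 TPM or less in every library, TFAP2C ran from 44.3 to 53.9 TPM and PDPN from 32.9 to 58.5 TPM. Of 10 markers of amnion and trophoblast, HAND1 and GABRP were at 958 TPM or more, CGA, CGB3 and GCM1 at 15.5 TPM or less, and the other 5 between these. The cells are therefore named by their labels only. TPM also corrects for transcript length, so levels of different genes can be set side by side, but the number of reads behind a value is unknown.

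IGF2 is a fetal growth factor that acts mainly through IGF1R and through one form of the insulin receptor, INSR. IGF2R, the mannose 6-phosphate receptor, binds IGF2 and takes it up for breakdown, and the IGF binding proteins hold IGFs outside the cell until proteases free them. IGF2 is usually expressed from the paternal copy of the locus and the long non-coding RNA H19 from the maternal copy, under a control region that CTCF binds when it is unmethylated. MIR675 is a microRNA (miRNA) made from H19.

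IGF2 lay below its control level in both oeDAZL libraries, and H19, the most abundant RNA of the locus, was nearly level. The MIR675 entry was almost at 0 in the oeDAZL libraries. The IGF2 level was 118 and 109.9 TPM in control and 67.0 and 65.1 TPM in oeDAZL. The libraries of the 2 groups did not overlap, and replicates lay close together. The mean was 114 ± 5.98 TPM in control and 66.0 ± 1.32 TPM in oeDAZL (SD, n = 2), a ratio of 0.579 and a log2 difference of -0.78 in TPM + 1. In bulk RNA, fewer cells of a type and less RNA per cell cannot be told apart. In rank among all genes of a library, IGF2 moved from places 1319 and 1446 in control to places 2499 and 2578 in oeDAZL.

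The IGF2 gene lies at chr11:2129112-2158391 on the minus strand (hg38, GENCODE 44). The second IGF2 entry, at chr11:2131395-2149603 on the same strand, had 0 TPM in each control library, 0.0240 TPM in oeDAZL replicate 1 and 0.00337 TPM in oeDAZL replicate 2, so nearly all signal under this name was in the first entry. INS, the insulin gene next to IGF2, and the read-through gene INS-IGF2 were listed at 0 in all 4 libraries. IGF2-AS, on the opposite strand within IGF2, was at 0.953 and 0.320 TPM in control and at 1.10 and 0.545 TPM in oeDAZL. MIR483, a miRNA gene inside IGF2, was listed at 0.158 TPM in control replicate 2 and at 0 in the other 3 libraries. Whether the sequencing kept strand is not given in the sources used here, so reads of these overlapping genes may have been split between entries. The other ligand gene, IGF1, was at 0.155 and 0.628 TPM in control and at 0.137 and 0.626 TPM in oeDAZL, and was too low to be tested.

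H19 lies at chr11:1995166-2004552 on the minus strand, 124.6 kb from the near end of IGF2. It was at 1762 and 1598 TPM in control and at 1518 and 1501 TPM in oeDAZL, and it ranked between place 54 and place 67 among all genes of a library. Both oeDAZL libraries lay below both control libraries, yet the log2 difference was only -0.15 (SE 0.064, 95% confidence interval -0.31 to 0.0032, adjusted p = 0.256, limma). The ratio of IGF2 to H19 was 0.0671 and 0.0688 in control and 0.0441 and 0.0434 in oeDAZL. This ratio contains IGF2 and is a description only.

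MIR675 is listed as a gene of its own at chr11:1996759-1996831, inside H19. GENCODE 44 places it inside an exon in 13 of the 31 H19 transcripts, in 10 of them exon 1. No exon of the canonical transcript holds the whole of it. The hairpin and its mature products are shown because the entry with the largest difference is this short stretch of H19. The sequences are from RefSeq (hg38), 5′ to 3′, with the 2 mature arms in capitals in the hairpin and the seed (bases 2 to 8) in capitals in each mature miRNA.
MIR675 hairpin: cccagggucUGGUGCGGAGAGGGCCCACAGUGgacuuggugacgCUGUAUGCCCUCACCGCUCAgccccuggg
hsa-miR-675-5p: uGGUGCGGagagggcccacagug
hsa-miR-675-3p: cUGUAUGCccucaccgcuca
hsa-let-7a-5p: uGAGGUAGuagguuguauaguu
The let-7a sequence is given beside them because the study concerns let-7 and sites for its seed are described below. The 3 seeds differ from each other. GUU occurs 0 times in the MIR675 hairpin, read on its own strand, whereas 65.0% of the 1562 RefSeq hairpins hold it. The stretch between the arms, gacuuggugacg, has 12 bases and also holds no GUU, compared with 23.5% of 739 hairpins with GUU in that stretch. Binding of DAZL to this hairpin was not tested, and a count of letters does not measure it.

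The MIR675 entry was at 8.39 and 4.08 TPM in control and at 0.0238 and 0.0246 TPM in oeDAZL. Control replicate 1 had far more than control replicate 2, and both oeDAZL libraries were almost at 0. The log2 difference was -2.75 in TPM + 1, which understates the change of a low gene, and -5.58 with a pseudocount of 0.1. As a percentage of the H19 level, MIR675 was 0.476 and 0.255 in control and 0.00157 and 0.00164 in oeDAZL. The entry counts fragments of longer RNA assigned to a 73-base gene inside another gene, and it does not measure the mature miRNAs. How the quantifier divided reads between MIR675 and H19 was not tested. Of the 1876 other miRNA genes in the table, 109 passed the filter on low values, of which 1 was called higher and 9 were called lower, and their median log2 difference was -0.28. A gene was called where its fold change was at least 2 with an unadjusted p of at most 0.05 in limma; of the 16687 genes tested, 0.126% were called higher and 0.563% were called lower.

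**Figure D1:**
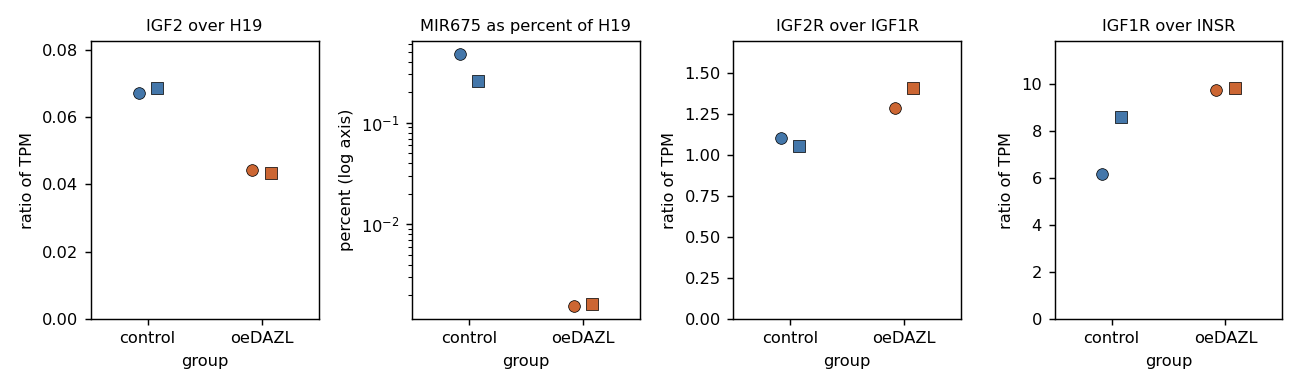
Ratios of TPM within each library, 1 point per library (circles replicate 1, squares replicate 2), for IGF2 over H19, MIR675 as a percentage of H19 on a log axis, IGF2R over IGF1R, and IGF1R over INSR. IGF2 over H19 was 0.0671 and 0.0688 in control and 0.0441 and 0.0434 in oeDAZL, and MIR675 over H19 was 0.476% and 0.255% in control and 0.00157% and 0.00164% in oeDAZL.

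Of the other tested genes of the locus and around it, H19 included, 0 were called. Within 500 kb on either side of H19 and IGF2 the table holds 60 entries, of which 19 were at 0 in all libraries. Apart from the entries named IGF2 and MIR675, 12 of 57 passed the filter on low values, H19 among them. Of these 12, limma called 0, beside 0.126% of all tested genes higher and 0.563% lower. At an unadjusted p of at most 0.05, 0 of the 12 passed, beside 5.02% higher and 15.2% lower over all tested genes. Their log2 differences ran from -0.26 to 0.50. LINC01219, the gene next to H19 on the side away from IGF2, was at 0.279 and 0.0360 TPM in control and at 0 and 0.117 TPM in oeDAZL, too low to be tested. MRPL23-AS1, the nearest tested neighbour of H19, was at 1.83 and 1.32 TPM in control and at 1.32 and 1.07 TPM in oeDAZL (adjusted p = 0.627). MRPL23, a mitochondrial ribosome gene beyond it, was at 34.3 and 36.2 TPM in control and at 34.2 and 38.8 TPM in oeDAZL (adjusted p = 0.791). CD81, a membrane protein gene beyond IGF2 that was picked after its values were seen, was at 283 and 281 TPM in control and at 262 and 269 TPM in oeDAZL, with the groups apart and a log2 difference of -0.09 (adjusted p = 0.386).

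**Figure D2:**
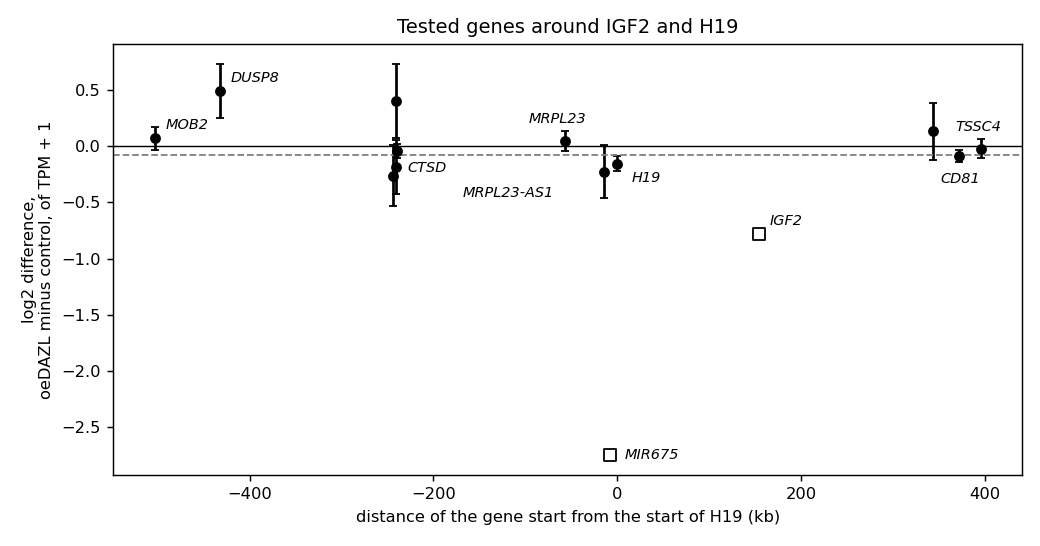
Log2 difference in TPM + 1, oeDAZL minus control, of the 14 tested genes within 500 kb of H19 and IGF2, against the distance of the gene start from that of H19 in kb. Bars are the SE of limma, open squares without bars are IGF2 and MIR675, for which no test is given, and the dashed line is the median of all tested genes, -0.08. IGF2 and MIR675 lie below all other genes, which run from -0.26 to 0.50.

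Among the receptors, IGF2R was higher, INSR lower and IGF1R level. None of the 3 was called, beside 0.126% of all tested genes called higher and 0.563% called lower. IGF2R, which takes IGF2 out of circulation, was at 62.4 and 65.4 TPM in control and at 75.5 and 82.5 TPM in oeDAZL. Both oeDAZL libraries were above both control libraries. The log2 difference was 0.30 (SE 0.071, 95% confidence interval 0.13 to 0.47, adjusted p = 0.117, limma). The gene lies at chr6:159969082-160113507.

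IGF1R, the main signalling receptor for both IGFs, was at 56.5 and 62.1 TPM in control and at 58.7 and 58.5 TPM in oeDAZL. The oeDAZL libraries lay between the control libraries, and the log2 difference was -0.02 with a 95% confidence interval of -0.19 to 0.16 (adjusted p = 0.925, limma), an interval that excludes a 2-fold change. Its sign turned under 3 other scalings of the table, to 0.07 with median-of-ratios scaling, and without control replicate 2, to 0.05. INSR was at 9.18 and 7.24 TPM in control and at 6.04 and 5.95 TPM in oeDAZL, so the control libraries were apart from each other and both were above oeDAZL. Its log2 difference was -0.39 (SE 0.15, 95% confidence interval -0.76 to -0.02, adjusted p = 0.232, limma).

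In each library IGF1R exceeded INSR, by 6.16 and 8.58 times in control and by 9.72 and 9.83 times in oeDAZL. IGF2R exceeded IGF1R by 1.10 and 1.05 times in control and by 1.29 and 1.41 times in oeDAZL. IGF2 was above IGF2R and IGF1R in both control libraries, whereas in both oeDAZL libraries it was below IGF2R and still above IGF1R. INSRR, a related receptor gene, was at 0.0864 TPM or less in every library.

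Of the binding proteins, IGFBP3 was the most abundant of the 10 genes in oeDAZL and was somewhat higher there than in control. IGFBP3 encodes the main carrier of IGFs in blood. It was at 1711 and 1816 TPM in control and at 2143 and 1978 TPM in oeDAZL, with the groups apart. The log2 difference was 0.22 (SE 0.065, 95% confidence interval 0.066 to 0.38, adjusted p = 0.158, limma). IGFBP2, at 422 and 465 TPM in control and 449 and 437 TPM in oeDAZL, had a log2 difference of -0.0012 with an interval of -0.15 to 0.15 (adjusted p = 0.995). Its sign turned under the same 3 scalings as that of IGF1R, to 0.08 at most, and without control replicate 2, to 0.07, or oeDAZL replicate 2, to 0.02.

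IGFBP4, whose product is cleaved by the protease PAPPA, was at 71.1 and 89.5 TPM in control and at 93.9 and 87.1 TPM in oeDAZL. The groups overlapped because control replicate 2 was above oeDAZL replicate 2 (log2 difference 0.18, adjusted p = 0.419). IGFBP5, which lies 7.67 kb from IGFBP2 on chromosome 2 and on the opposite strand, was at 121 and 98.8 TPM in control and at 111 and 122 TPM in oeDAZL. Its log2 difference was 0.09 (adjusted p = 0.682) and became -0.06 without control replicate 2. These 2 neighbours thus kept the same order in every library, with IGFBP2 well above IGFBP5.

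The summed level of the 4 binding protein genes was 2326 and 2470 TPM in control and 2797 and 2624 TPM in oeDAZL, with IGFBP3 making up 73.5% to 76.6% of it. Set against IGF2 in the same library, that sum was 19.7 and 22.5 times the IGF2 level in control and 41.8 and 40.3 times in oeDAZL. This ratio contains IGF2, whose difference chose it, and it is given as a description.

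**Figure D3:**
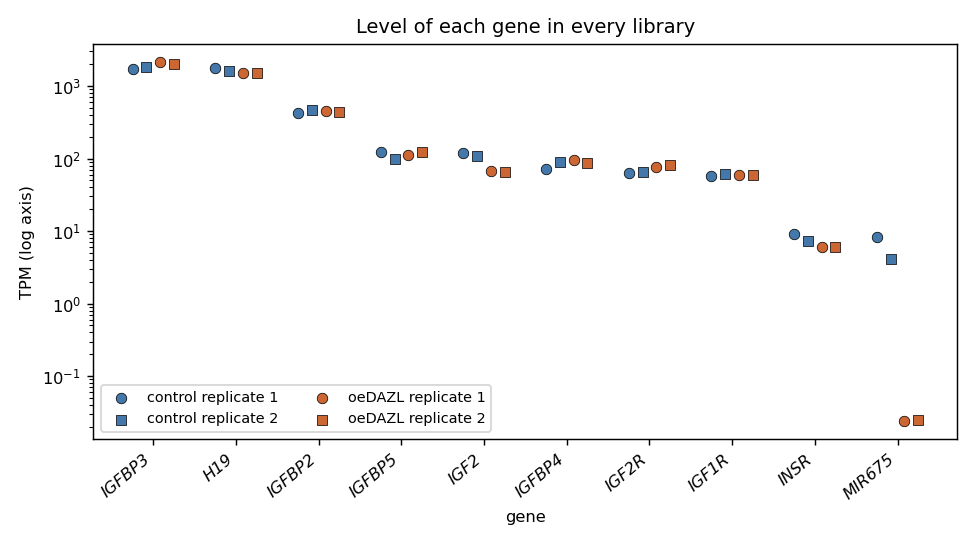
TPM of the 10 genes in the 4 libraries on a log axis, 1 point per library, control in blue and oeDAZL in orange, circles for replicate 1 and squares for replicate 2. IGF2, H19, INSR and MIR675 had both oeDAZL points below both control points, and the MIR675 points in oeDAZL are at 0.0238 and 0.0246 TPM.

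Across the 8 tested genes, 0 were called, beside 0.126% of all tested genes called higher and 0.563% called lower. At any fold change, IGF2R and IGFBP3 had an unadjusted p of at most 0.05 and were higher, and INSR had one and was lower. Over all tested genes 5.02% were higher and 15.2% lower at that p, and 0 of the 8 had an adjusted p under 0.05. The groups were apart with oeDAZL higher in 2 of the 8, IGF2R and IGFBP3, beside 16.0% of all tested genes, and apart with oeDAZL lower in 2, H19 and INSR, beside 38.4%. The median log2 difference was 0.04 over these 8 genes and -0.08 over all tested genes, of which 65.3% were below 0. Under all 12 alternative settings H19 and INSR stayed below 0 and IGF2R, IGFBP3 and IGFBP4 above 0, but some sizes moved by over 1.5 times. IGFBP4 was at 0.015 without control replicate 1 and at 0.34 without control replicate 2. INSR was at -0.24 without control replicate 1 and at -0.26 with quantile normalization. H19 was at -0.08 without control replicate 1 and at -0.07 with median-of-ratios scaling. With 2 libraries against 2, an exact permutation test of any single gene cannot give a p below 0.333.

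**Figure D4:**
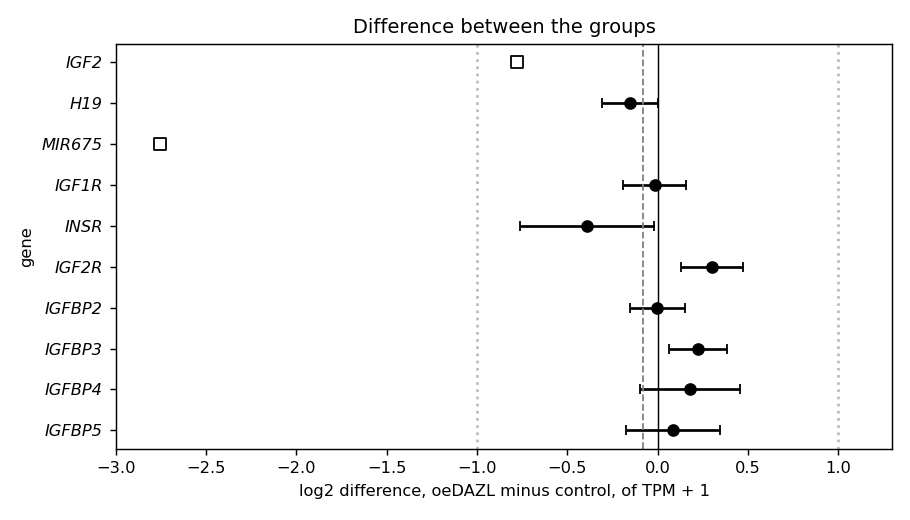
Log2 difference in TPM + 1, oeDAZL minus control, of the 10 genes. Bars are 95% confidence intervals of limma, open squares are IGF2 and MIR675 with no interval, dotted lines mark a 2-fold difference and the dashed line is the median of all tested genes, -0.08. The intervals of IGF2R and IGFBP3 lie above 0, that of INSR lies below 0, and none of the 8 reaches a 2-fold difference in its estimate.

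By abundance in control, the order was IGFBP3, H19, IGFBP2, IGF2, IGFBP5, IGFBP4, IGF2R, IGF1R, INSR and MIR675. In that order the libraries overlapped between IGFBP3 and H19, between IGF2 and IGFBP5, and between INSR and MIR675, so these neighbours did not differ beyond their spread. In oeDAZL the order was IGFBP3, H19, IGFBP2, IGFBP5, IGFBP4, IGF2R, IGF2, IGF1R, INSR and MIR675, with no overlap between neighbours. IGF2 thus moved from place 4 to place 7, behind IGFBP5, IGFBP4 and IGF2R.

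The wider IGF pathway was followed with 55 further genes, of which 44 passed the filter on low values. Limma called 0 of the 44, beside 0.126% of all tested genes called higher and 0.563% called lower. At an unadjusted p of at most 0.05, 2, IRS1 and GRB2, were higher and 12 lower, beside 5.02% higher and 15.2% lower over all tested genes. Of the 44, 32 were below 0, beside 65.3% of all tested genes. Their median log2 difference was -0.11, beside -0.08 over all tested genes. With median-of-ratios scaling 25 of the 44 were below 0, with a median of -0.03. Of the further binding protein genes, IGFBP7 was at 530.0 and 538 TPM in control and at 540.0 and 559 TPM in oeDAZL (adjusted p = 0.678), at a level above IGFBP2. IGFBP6, which favours IGF2 among the IGFs, was at 14.0 and 14.4 TPM in control and at 15.2 and 11.2 TPM in oeDAZL (adjusted p = 0.707), and IGFBP1 was listed at 0 in 3 libraries and at 0.195 TPM in oeDAZL replicate 1. IGFBPL1, picked after its values were seen, was at 30.8 and 22.7 TPM in control and at 15.3 and 17.4 TPM in oeDAZL (log2 difference -0.67, adjusted p = 0.116).

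The proteases that free IGFs from binding proteins, and their inhibitors, included 3 genes lower at that p among 5 tested, beside 15.2% of all tested genes. The other 2 were PAPPA, which overlapped (log2 difference -0.17, adjusted p = 0.578), and the inhibitor STC1, with both oeDAZL libraries above control (log2 difference 0.15, adjusted p = 0.431). All 5 are named after their values were seen. PAPPA2, a protease that cleaves IGFBP3 and IGFBP5, was at 18.2 and 9.76 TPM in control and at 5.62 and 7.13 TPM in oeDAZL (log2 difference -0.97, adjusted p = 0.155). It missed the 2-fold limit and was called with a pseudocount of 0.1, at -1.06, and without control replicate 2, at -1.39, or oeDAZL replicate 2, at -1.12. HTRA1, a secreted protease, was at 87.7 and 83.4 TPM in control and at 63.6 and 68.0 TPM in oeDAZL (log2 difference -0.37, adjusted p = 0.0896). STC2, an inhibitor of PAPPA, was at 53.9 and 49.3 TPM in control and at 39.1 and 40.7 TPM in oeDAZL (log2 difference -0.36, adjusted p = 0.104).

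Downstream of the receptors, the adaptor gene IRS1 was at 45.6 and 49.0 TPM in control and at 54.4 and 53.6 TPM in oeDAZL (log2 difference 0.19, adjusted p = 0.215). Its relative IRS2 was at 9.58 and 10.6 TPM in control and at 9.28 and 8.64 TPM in oeDAZL (log2 difference -0.15, adjusted p = 0.506). GRB10, an imprinted adaptor that dampens receptor signalling, was at 46.4 and 42.4 TPM in control and at 34.4 and 36.1 TPM in oeDAZL (log2 difference -0.32, adjusted p = 0.122). Of 20 genes of PI3K, AKT and mTOR signalling, 3 were lower at an unadjusted p of at most 0.05 in limma, near the 15.2% of all tested genes. These were TSC2, FOXO3 and PIK3R1. TSC2, an inhibitor of mTOR complex 1, had the largest difference of the 3, from 94.7 and 79.0 TPM to 55.5 and 59.9 TPM (log2 difference -0.58, adjusted p = 0.0896). GRB10, TSC2, FOXO3 and PIK3R1 were picked after their values were seen.

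Of the 8 transcription and imprint factors of the list, 6 passed the filter. Limma called 0 of them, beside 0.126% of all tested genes called higher and 0.563% called lower. In these 6 both oeDAZL libraries lay below both control libraries, beside 38.4% of all tested genes, and 65.3% of all tested genes had a log2 difference below 0. CTCF was above 0 with median-of-ratios scaling and with quantile normalization, and ZFP57, too low for the filter, was above 0 without it. HMGA2, a chromatin protein known to act upstream of PLAG1 and IGF2, was at 198 and 206 TPM in control and at 159 and 163 TPM in oeDAZL (log2 difference -0.33, SE 0.054, adjusted p = 0.0896, limma). PLAG1 itself was at 10.4 and 8.61 TPM in control and at 7.29 and 8.04 TPM in oeDAZL (log2 difference -0.27, adjusted p = 0.329). PLAGL1, an imprinted zinc finger gene, had 33.1 TPM in control replicate 1 and 19.4 TPM in control replicate 2, against 15.1 and 17.2 TPM in oeDAZL (log2 difference -0.62, adjusted p = 0.218). CTCF was nearly level, at 58.4 and 56.0 TPM in control and 55.8 TPM in both oeDAZL libraries (log2 difference -0.03, adjusted p = 0.798). HMGA2, PLAGL1 and TRIM28, a corepressor that keeps imprints in place, had an unadjusted p of at most 0.05 in limma. The factors named here were picked after their values were seen.

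**Figure D5:**
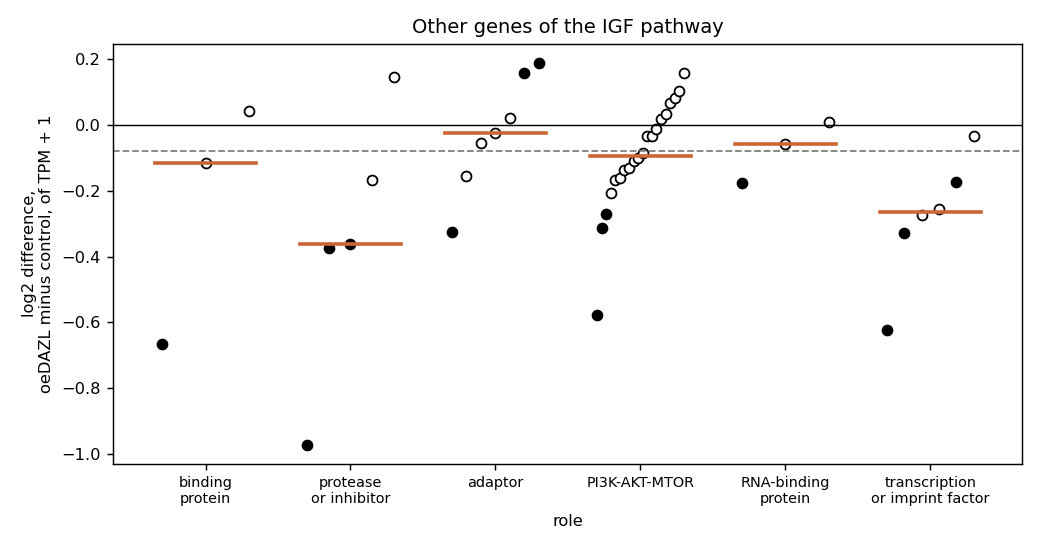
Log2 difference in TPM + 1, oeDAZL minus control, of the 44 tested genes of the wider IGF pathway, grouped by role and sorted within each role. Filled points have an unadjusted p of at most 0.05 in limma, orange bars are medians of the role and the dashed line is the median of all tested genes, -0.08. The 6 transcription and imprint factors all lie below 0 on this scaling, and the lowest point is PAPPA2 at -0.97.

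The IGF2 mRNA-binding proteins, which bind IGF2 and H19 RNA among others, were abundant and showed small differences. IGF2BP1 was at 168 and 167 TPM in control and at 161 and 161 TPM in oeDAZL (log2 difference -0.06, adjusted p = 0.569, limma), and its difference became 0.03 with median-of-ratios scaling. IGF2BP2 was at 157 and 152 TPM in control and at 137 and 136 TPM in oeDAZL (log2 difference -0.18, 95% confidence interval -0.31 to -0.05, adjusted p = 0.166). IGF2BP3 was at 95.7 and 82.3 TPM in control and at 91.9 and 86.9 TPM in oeDAZL (log2 difference 0.01, adjusted p = 0.962).

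Sites for the miRNAs above were looked for in the longest 3′UTR of each gene in GENCODE 44 (hg38), on the transcript strand only. A let-7 site is CTACCTCA, the complement of the seed of let-7a followed by A, and it was found in 4.05% of 19248 genes. Of the 8 protein-coding genes of the locus, receptors and binding proteins, IGF1R and INSR each have 1 such site. Their 3′UTRs have 7088 and 4801 bases, and a longer 3′UTR has more room for a match. In the wider list the 3 IGF2BP genes have sites, 3 of them in IGF2BP1. These are shown with the 8 bases in capitals because the results describe these receptors and RNA-binding proteins member by member; IGF1, PAPPA, IRS2, PIK3CA, AKT2 and RICTOR of the wider list hold 1 site each as well.
IGF1R, chr15:98960061-98960068, plus strand: tcccccaaacatttatCTACCTCActctt
INSR, chr19:7114656-7114663, minus strand: cttttttcagcacagtCTACCTCAgtgta
IGF2BP1, chr17:49051076-49051083, plus strand: ctgtgtgcgaagtaaaCTACCTCAaggta
IGF2BP1, chr17:49053713-49053720, plus strand: ccagcagtgctagtaaCTACCTCAcagag
IGF2BP1, chr17:49054367-49054374, plus strand: agtataaatggattaaCTACCTCAatcct
IGF2BP2, chr3:185644220-185644227, minus strand: aaacacacagaagaagCTACCTCAggtgt
IGF2BP3, chr7:23311795-23311802, minus strand: gtgcatttttactcaaCTACCTCAggtat
The coordinates are those of the 8 capital bases. A match of letters is a description and not a shown site. Over both lists 11 genes hold a let-7 site, and the 10 of these that were tested had a median log2 difference of -0.13, with 8 below 0, 0 called and 2, INSR and IGF2BP2, with an unadjusted p of at most 0.05 in limma. Of the 41 tested genes of the lists with a 3′UTR and no such site, IGF2 left out, 27 were below 0. Their median was -0.05, and 15 had an unadjusted p of at most 0.05 in limma in either direction. Over all tested genes 65.3% were below 0, and 5.02% were higher and 15.2% lower at that p. Called were 0.126% higher and 0.563% lower. HMGA2 has no such site in the longest 3′UTR and 1 in that of its canonical transcript. It is counted among the 41 genes without a site, and shorter matches were not looked for, so the 2 groups are not cleanly divided.

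The sites of the MIR675 products were rarer. CCGCACCA, for miR-675-5p, occurs in 0.58% of genes, and GCATACAA, for miR-675-3p, in 1.89%. Of the 8 protein-coding genes, 0 hold either. In the wider list IGFBPL1 holds 1 for miR-675-5p, and STC2 and FOXO3 hold 1 each for miR-675-3p.
IGFBPL1, chr9:38406611-38406618, minus strand: acaatgcccccactccCCGCACCAaacct
STC2, chr5:173315185-173315192, minus strand: acttgggctttatactGCATACAAattta
FOXO3, chr6:108680969-108680976, plus strand: tgagtgagaggcaataGCATACAAactga
They are shown because these are the only matches to these 8-base sites in the longest 3′UTRs of the lists. Shorter matches to the miR-675 seeds were not looked for. None of the 3 genes was called, beside 0.126% of all tested genes called higher and 0.563% called lower. Each was lower in oeDAZL at an unadjusted p of at most 0.05 in limma, beside 15.2% of all tested genes. A part of miR-675 in this was not tested.

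Of 10 markers of mesoderm and mesenchyme, limma called 2 lower in oeDAZL. The 10 markers of mesoderm and mesenchyme summed to 3285 and 3286 TPM in control and to 2443 and 2457 TPM in oeDAZL. Of these 10, all tested, 8 had both oeDAZL libraries below both control libraries, beside 38.4% of all tested genes. POSTN and TWIST1 overlapped, with log2 differences of 0.57 and 0.10, and none of the 10 was at 0. The 2 called lower stand beside 0.563% of all tested genes. COL3A1, a fibrillar collagen gene, fell from 583 and 479 TPM to 224 and 220 TPM (log2 difference -1.25, adjusted p = 0.0344, limma). DCN, which encodes the matrix proteoglycan decorin, fell from 10.1 and 6.45 TPM to 3.05 and 3.54 TPM (log2 difference -1.08, adjusted p = 0.1003), a call lost without control replicate 1, at -0.80, and with quantile normalization, at -0.94. Their part in the difference of IGF2 was not tested.

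The other marker lists held 3 called genes, all lower, beside 0.126% of all tested genes called higher and 0.563% lower. Tested were 4 pluripotency, 7 primordial germ cell, 9 amnion and trophoblast, 6 endoderm and 3 neural markers. The 7 endoderm markers summed to 287 and 166 TPM in control and to 165 and 209 TPM in oeDAZL, with ALB at 0 in oeDAZL replicate 1. The 10 amnion and trophoblast markers summed to 3442 to 3590 TPM in control and 3648 to 3696 TPM in oeDAZL. The 8 markers of primordial germ cells summed to 101 to 111 TPM in control and to 114 TPM in both oeDAZL libraries, with 0 called. Of the 7 tested, 6 had a log2 difference below 0, beside 65.3% of all tested genes. PDPN, 1 of the 7, was higher at an unadjusted p of at most 0.05 in limma, beside 5.02% of all tested genes. The 5 pluripotency markers summed to 486 to 540 TPM in control and 466 to 483 TPM in oeDAZL. The 5 neural markers summed to 437 to 577 TPM in control and 635 to 689 TPM in oeDAZL. Such sums follow their most abundant genes and hide members that go the other way. POU5F1 was at 13.6 and 10.6 TPM in control and at 22.4 and 20.4 TPM in oeDAZL (log2 difference 0.79, adjusted p = 0.0896, limma). The other 3 tested pluripotency markers were below 0. At an unadjusted p of at most 0.05 in limma, POU5F1, HAND1 and NES were higher besides PDPN. VTCN1, ISL1 and APOA2 were lower at that p besides the 3 called genes. NES and TUBB3 carried the neural sum. PAX6, SOX1 and DCX were lower in both oeDAZL libraries than in both control libraries, beside 38.4% of all tested genes. SOX1 and DCX were too low to be tested. In these lists AFP, CGA and PAX6 were called lower, with log2 differences of -1.04, -1.18 and -1.30. Without control replicate 1 these became -0.34, -0.92 and -0.71 and none of the 3 was called, and AFP and PAX6 also lost the call without oeDAZL replicate 1, at -0.87 and -1.05. AFP kept its call only with a pseudocount of 0.1 and with the replicate block among the 8 settings that keep all libraries, and PAX6 lost its call without the filter on TPM. Their part in the values of the IGF genes was not tested.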

How the data were processed

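The measured values are TPM per gene in 4 libraries, as deposited by the authors. According to the paper's methods, trimmed reads went through HISAT2 (hg38) and then StringTie. The submitters' processing notes list Trim Galore 0.6.4, cutadapt 1.18, HISAT2 2.1.0 and StringTie 2.1.4, and the paper gives another Trim Galore version. The annotation release is not given in the sources used here. Since TPM values hold no read numbers, depth is unknown and counting error could not be given. Of 65003 entries, 45 chromosome Y copies and 18 repeats were left out.

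The 16687 genes whose TPM averaged 1 or more were tested on log2(TPM + 1) with limma 3.58.1 (R 4.3.3, trended eBayes, no covariates). Calls needed a 2-fold change and p ≤ 0.05 before adjustment, as in the paper. Adjusted p-values are Benjamini-Hochberg over all 16687 genes. In simulated data of this comparison, 200 of 16687 genes were changed by 2 on the log2 scale, drawn only from genes above a set level. Of these 200, 99.5% were called in the right direction, and 46 unchanged genes were called. Smaller changes, and changes in low genes, were not simulated, so the share called among them is unknown.

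The 10 genes, the lists and the tests were chosen with earlier results of these data known. Named were the 10 genes; of the pathway list the called genes, the IGF2BP genes, IGF1, INS, IGFBP1, IGFBP6, IGFBP7, IRS1 and IRS2; of the locus the called genes and the neighbours of IGF2 and H19; and the called markers. All others were picked after their values were seen. IGF2 and MIR675 were left out of the counts of genes around the locus, which departs from the design, and MIR675 out of those of miRNA genes. Coordinates are from GENCODE 44, in which 90.0% of the 64940 genes were found. Of the 4 miRNA sequences, all matched RefSeq names. All 16 sites were checked by reading the same bases from hg38. The alternatives tried were a pseudocount of 0.1, no filter, a filter at a mean TPM of 5, median-of-ratios scaling, quantile normalization, TPM rescaled without mitochondrial genes, the replicate number as a block, no trend, an adjusted p, the canonical 3′UTR and each library left out.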

Additional observations from a re-analysis of the deposited data

How the results depend on the processing

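Over all tested genes, 21 higher and 94 lower calls became 55 and 267 (pseudocount of 0.1), 6 and 23 (filter at a mean TPM of 5), 41 and 52 (quantile normalization), and 4 and 6 (adjusted p under 0.05). Leaving out 1 library gave 35 to 87 higher and 85 to 235 lower calls; the calls were highest, 87 and 235, without control replicate 2, and were 45 and 187 without oeDAZL replicate 2, 44 and 131 without oeDAZL replicate 1, and 35 and 85 without control replicate 1. Of the calls, 81.7% were lower, and 55.9% with quantile normalization. Median-of-ratios scaling moved the median of all genes from -0.08 to -0.0026. The causes were not tested. The pathway list had 1 lower call with a pseudocount of 0.1, and 0 to 1 with a library left out.

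IGF2 was at -0.70 with median-of-ratios scaling and between -0.83 and -0.73 with a library left out, and MIR675 at -5.58 with a pseudocount of 0.1 and between -3.20 and -2.31 with a library left out. IGF1R turned to 0.0671 under median-of-ratios scaling, 0.0282 under quantile normalization and 0.00161 without mitochondrial genes, and IGFBP2 to 0.0825, 0.0180 and 0.0160. IGF2BP1 turned to 0.0272 with median-of-ratios scaling. With a library left out, IGF1R ran from -0.0815 to 0.0508, IGFBP2 from -0.0711 to 0.0687, IGFBP5 from -0.0600 to 0.234, IGFBP6 from -0.319 to 0.0910 and IGF2BP3 from -0.0974 to 0.117.

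Libraries share replicate numbers across the groups, but nothing in the labels says that a number pairs them, and the deviations of same-numbered libraries correlated at -0.10 over genes. With the replicate number as a block, 26 genes were called higher and 99 lower. Depth is unknown, so values near 0, such as those of MIR675 in oeDAZL, have no stated precision beyond the replicates.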
